A study of Mus musculus with 20 samples.

Results

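The caveolin and cavin genes Cav1, Cav2, Cav3, Cavin1, Cavin2 and Cavin3 were followed in messenger RNA of the mouse aorta. Members were chosen by name, as the probe sets annotated with exactly 1 gene symbol from this family, and they made up 6 of the 18193 genes that the array names in this way. They were represented by 11 probe sets, 3 each for Cavin1 and Cavin2, 2 for Cav2 and 1 each for Cav1, Cav3 and Cavin3. All 11 probe sets, and so all 6 genes, passed the filter on low levels, which was a mean log2 value of 8.73 over the arrays. Each gene is described by its brightest probe set, and the other probe sets are given beside it.

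The aortas came from adult mice, and each array was hybridized with RNA pooled from 8 aortas, so that the spread between replicates is a spread between pools and the small number of arrays limits the precision. Rosiglitazone, a drug that binds and activates the nuclear receptor PPARγ, was given in the food to C57BL/6J mice. The groups were 3 mg/kg/day for 2 days (n = 3 arrays), 3 mg/kg/day for 14 days (n = 3), 10 mg/kg/day for 2 days (n = 3) and 10 mg/kg/day for 14 days (n = 2), and their controls ate chow with the vehicle, which the design text calls standard chow (n = 3). In a separate experiment on standard chow, mice with the P465L mutation knocked into the endogenous PPARγ gene (n = 3) were set against wild-type littermates (n = 3). The labels describe P465L PPARγ as dominant negative, and the number of mutant copies and the ages in days are not given in the sources used here. A single chow group served all 4 rosiglitazone groups, so their comparisons share those 3 arrays. Whole aortas hold smooth muscle, endothelium, adventitia and attached fat, and in such bulk RNA fewer cells of a type cannot be told apart from less RNA per cell. All 8 smooth muscle markers and all 10 endothelial markers looked up passed the filter on low levels. The MAS5 signals had been scaled to the same trimmed mean on every array, and the median signal of an array lay between 321.3 and 450.7.

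Caveolae are small flask-shaped pits of the plasma membrane that are dense in smooth muscle cells, endothelial cells and adipocytes. Caveolins are hairpin proteins that insert into the inner leaflet, and cavins are soluble coat proteins that assemble on the caveolin-rich membrane. Without caveolin-1 or cavin-1, the caveolae of non-muscle cells do not form. Caveolae buffer membrane tension and hold signalling proteins such as endothelial nitric oxide synthase, and in fat cells they take part in fatty acid uptake.

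The genes lie on 4 chromosomes of the GRCm38 build. Cav2 (chromosome 6, 17281185 to 17289130) and Cav1 (chromosome 6, 17306335 to 17341328) are neighbours, with 17205 bases between the end of Cav2 and the start of Cav1. Cav3 lies on the same chromosome at 112459505 to 112472872. Cavin1 is on chromosome 11 at 100956736 to 100970617, Cavin2 on chromosome 1 at 51289126 to 51302960, and Cavin3 on chromosome 7 at 105480616 to 105482197. The 250 bases upstream of the RefSeq start are shown for Cavin1 and Cavin2, because these cavins had the lowest and the highest fold changes of the family with rosiglitazone at 10 mg/kg/day. The Cavin1 sequence is chr11:100970618-100970867 on the minus strand and the Cavin2 sequence is chr1:51288876-51289125 on the plus strand, both in GRCm38.p6 and read 5′ to 3′. Capitals mark a match to CCAAT or to GGGCGG on either strand.
Cavin1: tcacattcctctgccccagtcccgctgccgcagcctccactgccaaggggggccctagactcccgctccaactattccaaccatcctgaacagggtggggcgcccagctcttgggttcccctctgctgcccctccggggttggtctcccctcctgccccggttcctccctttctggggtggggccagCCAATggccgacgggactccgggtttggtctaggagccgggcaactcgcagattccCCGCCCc
Cavin2: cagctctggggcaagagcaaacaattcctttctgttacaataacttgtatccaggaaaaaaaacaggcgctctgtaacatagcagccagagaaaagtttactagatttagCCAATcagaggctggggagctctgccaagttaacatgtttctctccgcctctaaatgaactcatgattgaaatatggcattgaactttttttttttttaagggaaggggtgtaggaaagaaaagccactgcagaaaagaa

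The Cavin1 sequence had 67.6% G and C, and the Cavin2 sequence had 40.4%. The median over 32851 RefSeq promoters was 52.4%, and 87.1% of them lay below the Cavin1 value while 12.5% lay below the Cavin2 value. The motifs were searched on both strands in the same 250 upstream bases of every promoter. CCAAT, the core of the binding site of the NF-Y complex, was found in the sequences of Cavin1, Cavin2 and Cav2 and occurred in 33.8% of all promoters. GGGCGG, a core of Sp1 sites, was found in those of Cavin1 and Cav2 and in 1 of the 2 listed for Cav1, and in 32.7% of all promoters. AGGTCA, the core element bound by many nuclear receptors, was found among the members searched only in Cav3, at position -165 from the start, and in 14% of all promoters. The direct repeat AGGTCANAGGTCA, the type of site that PPARγ binds with its partner RXR, was found in none of the members searched and in 0.0335% of all promoters. TATAAA, the TATA box, was found in 1 of the 2 Cav1 sequences and in 12.4% of all promoters, and Cavin3 was not among the sequences used here.

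Cavin1, the coat protein also called PTRF that is needed for caveolae in most cells, was the member that changed with rosiglitazone. Its signals were 8525, 9364 and 11131 in the aortas given 10 mg/kg/day for 2 days, against 17268, 16926 and 17049 in chow controls. All 3 treated arrays lay below all 3 controls, as they did for 13.5% of the genes tested. The mean signal was 9673 ± 1330 (SD, n = 3) in the treated aortas and 17081 ± 173 (SD, n = 3) in chow controls. On the log2(signal + 72) scale Cavin1 fell by 0.82 (SE 0.15, 95% interval -1.14 to -0.51), which is 0.565 of the control level (interval 0.453 to 0.704), with an adjusted p of 0.0235 by limma. It was the only member called in this comparison, 1 of 6, where 0.505% of the 11081 genes tested were called in either direction and 0.37% as lower. The call was lost without 10 mg/kg/day, 2 days, replicate A (-0.74, adjusted p = 0.0777) or B (-0.81, adjusted p = 0.0836), and without chow replicate A (-0.82, adjusted p = 0.125), B (-0.83, adjusted p = 0.0619) or C (-0.83, adjusted p = 0.0623). Among the arrays compared, the call was kept only without replicate C at 10 mg/kg/day for 2 days (-0.93, adjusted p = 0.0353). Calls over all 11081 genes fell in the same fits. They were 14, 0 and 11 without replicates A, B and C of that group. The counts were 3, 18 and 7 without chow replicates A, B and C, beside 56 with every array. The fold changes of Cavin1 ranged from -0.93 to -0.74 over all arrays left out in turn. Leaving out an array of a group not compared could not move them.

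**Figure D1:**
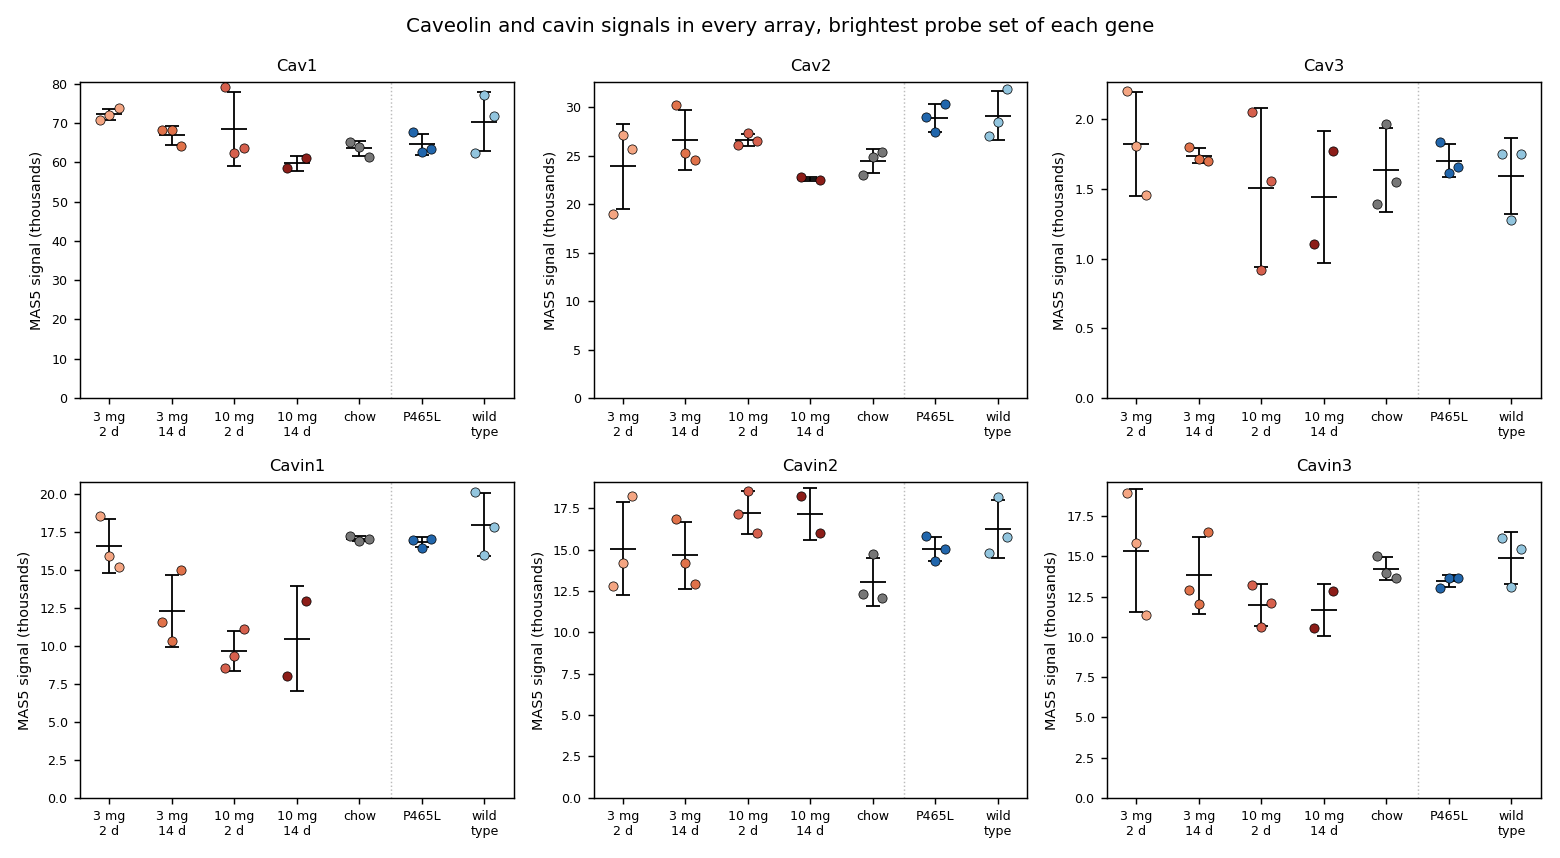
MAS5 signal (vertical axes, from 0) of the brightest probe set of each gene, by group (horizontal axes), with every array as a point and bars for the mean ± SD (n = 3 arrays, 2 for 10 mg/kg/day for 14 days). In the Cavin1 panel the 3 arrays at 10 mg/kg/day for 2 days lie between 8525 and 11131, all below the chow arrays, which lie between 16926 and 17268.

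At 10 mg/kg/day for 14 days the Cavin1 signals were 8042 and 12941. Both lay below every chow control, a pattern that 20.3% of genes showed with these 2 arrays. The log2 difference was -0.74 (SE 0.17, 95% interval -1.09 to -0.38) and was not called (adjusted p = 0.0860), where 0.271% of genes were called. The value was -1.08 (adjusted p = 0.0221) without replicate B of this group, -0.40 (adjusted p = 0.706) without replicate A, and -0.74 (adjusted p = 0.0494) without replicate C of the 14-day group at 3 mg/kg/day.

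On 3 mg/kg/day the Cavin1 signals were 18585, 15931 and 15186 after 2 days and 11589, 10344 and 14988 after 14 days. The arrays at 2 days surrounded the chow range, and the arrays at 14 days all lay below it, as they did for 7.49% of genes. The log2 difference from chow was -0.05 (SE 0.15, adjusted p = 0.949) at 2 days and -0.49 (SE 0.15, unadjusted p = 0.00443, adjusted p = 0.428) at 14 days. At either time with 3 mg/kg/day limma called 0 of 11081 genes (0%), while 978 genes (8.83%) at 2 days and 916 (8.27%) at 14 days had an unadjusted p under 0.05.

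Averaged over the 4 rosiglitazone groups, Cavin1 was at -0.53 against chow (SE 0.12, 95% interval -0.78 to -0.27), with an adjusted p of 0.0661, where 0.433% of genes were called. Its signals over the 11 treated arrays had a lowest value of 8042, a median of 11589 and a highest value of 18585, so that 1 treated array lay above the chow controls. This average passed the threshold when 1 of 3 arrays was left out. They were replicate A of the 2-day group at 3 mg/kg/day (-0.55, adjusted p = 0.0415), replicate C of the 14-day group at 3 mg/kg/day (-0.56, adjusted p = 0.0289) and replicate B of the 14-day group at 10 mg/kg/day (-0.61, adjusted p = 0.0251).

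Between the doses, Cavin1 had signals of 8042 to 12941 (median 9364, n = 5) at 10 mg/kg/day and 10344 to 18585 (median 15087, n = 6) at 3 mg/kg/day. The ranges overlapped. The log2 difference was -0.51 (SE 0.11, unadjusted p = 0.000217), with an adjusted p of 0.179 over all genes. Limma called 0 genes (0%) for dose, 0 for time and 0 for their interaction, with 1405 genes (12.7%), 464 (4.19%) and 486 (4.39%) at an unadjusted p under 0.05. For 14 against 2 days Cavin1 was at -0.18 (SE 0.11, adjusted p = 0.999), and the interaction of dose and time was 0.52 (SE 0.23, adjusted p = 0.964). The interaction was 0.86 without replicate A and 0.18 without replicate B of the 14-day group at 10 mg/kg/day.

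The other 2 Cavin1 probe sets were dimmer and were fitted together with all 19389 probe sets that passed the filter. Probe set 1421431_at read 1184, 1207 and 1564 at 10 mg/kg/day for 2 days, against 2703, 1753 and 2107 in chow controls. The treated arrays lay wholly below the controls, as they did for 12.8% of probe sets, and the log2 difference was -0.69 (SE 0.25, adjusted p = 0.190), in the same direction as the brightest probe set, 1424130_a_at, which was at -0.82 with an adjusted p of 0.0249 in that fit. In it 0.66% of probe sets were called for this comparison. At 10 mg/kg/day for 14 days 1421431_at read 1145 and 1283, again below every control, as for 18.8% of probe sets, with a log2 difference of -0.79 (SE 0.28, adjusted p = 0.251), where 0.248% of probe sets were called. Probe set 1453891_at, with signals of 114.3 to 877.2 over the 20 arrays, was at -0.50 (SE 0.36, adjusted p = 0.554) at 2 days and -0.11 (SE 0.40, adjusted p = 0.949) at 14 days on the higher dose. With the mean of the 3 probe sets in place of the brightest, Cavin1 was at -0.67 at 10 mg/kg/day for 2 days (adjusted p = 0.116). That setting called 27 of 9992 genes in this comparison.

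**Figure D2:**
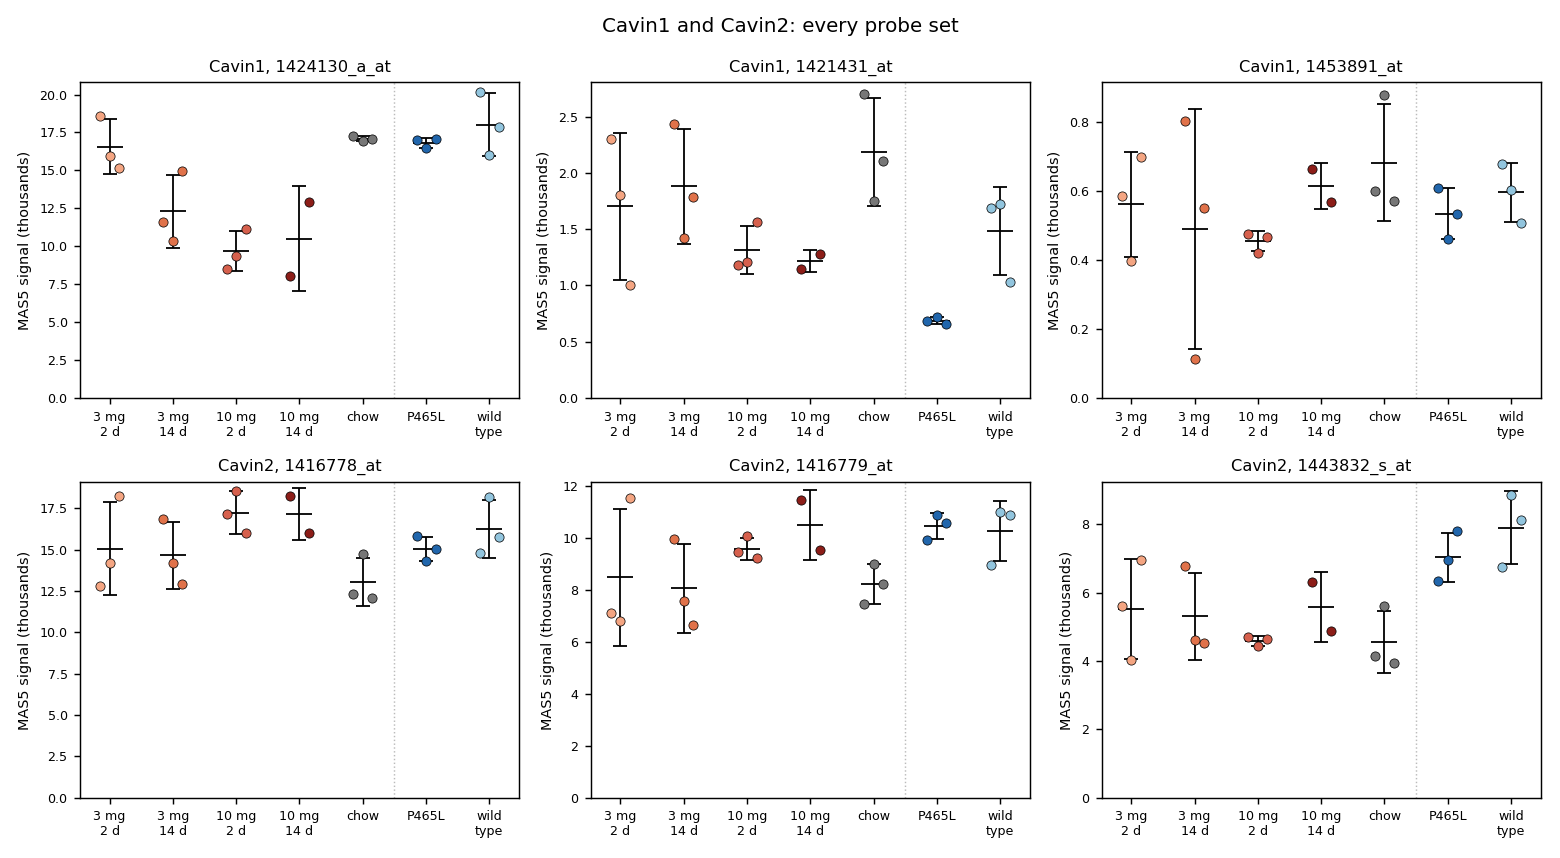
MAS5 signal (vertical axes, from 0) of the 3 Cavin1 and 3 Cavin2 probe sets by group (horizontal axes), with every array as a point and bars for the mean ± SD (n = 3, 2 for 10 mg/kg/day for 14 days). In the panel of 1421431_at the P465L arrays lie between 657.2 and 717.4, below the wild-type littermates at 1034 to 1726.

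Cavin2, the coat protein also called SDPR that shapes the caveolar membrane, had its highest group means at 10 mg/kg/day by its brightest probe set, but not by the other 2. Its signals were 17130, 18565 and 15973 at 10 mg/kg/day for 2 days and 18257 and 16025 at 10 mg/kg/day for 14 days, against 12341, 14718 and 12051 in chow controls. All 5 arrays at the higher dose lay above all 3 controls. The log2 difference was 0.40 (SE 0.13, 95% interval 0.13 to 0.67, adjusted p = 0.149) at 2 days and 0.40 (SE 0.14, interval 0.10 to 0.70, adjusted p = 0.271) at 14 days, and neither was called. Arrays wholly above the controls were seen for 10.2% of genes at 2 days and 14.8% at 14 days. On 3 mg/kg/day Cavin2 read 12773, 14189 and 18214 after 2 days and 16857, 14159 and 12910 after 14 days, and these ranges overlapped the controls, with log2 differences of 0.20 (SE 0.13, adjusted p = 0.674) and 0.16 (SE 0.13, adjusted p = 0.765). The average over the 4 groups was 0.29 (SE 0.10, adjusted p = 0.206). Of its other probe sets, 1416779_at was at 0.22 (SE 0.16) after 2 days and 0.35 (SE 0.18) after 14 days on the higher dose, and 1443832_s_at was at 0.03 (SE 0.18) after 2 days and 0.29 (SE 0.21) after 14 days. The group means of 1416779_at were 10486 at 10 mg/kg/day for 14 days, 10450 in P465L, 10266 in wild-type littermates and 9574 at 10 mg/kg/day for 2 days. Those of 1443832_s_at were highest in wild-type littermates (7904) and P465L (7029), with 4593 at 10 mg/kg/day for 2 days beside 4566 in chow controls.

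Cavin3, the cavin also called PRKCDBP that binds protein kinase C delta, read 13232, 10639 and 12091 at 10 mg/kg/day for 2 days and 10541 and 12817 at 14 days, against 15016, 13982 and 13648 in chow controls. All 5 arrays lay below the controls, as the arrays did for 13.5% of genes at 2 days and 20.3% at 14 days. The log2 difference was -0.25 (SE 0.15, adjusted p = 0.448) at 2 days and -0.29 (SE 0.17, adjusted p = 0.501) at 14 days. The arrays on 3 mg/kg/day spread from 11350 to 18910, on both sides of the controls, and the log2 differences were 0.08 (SE 0.15) after 2 days and -0.05 (SE 0.15) after 14 days.

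Cav1, the caveolin that drives caveola formation in smooth muscle, endothelium and fat, stayed in a narrow range. Its signals were 79258, 62458 and 63637 at 10 mg/kg/day for 2 days and 58444 and 61103 at 14 days, against 65245, 63876 and 61418 in chow controls. The highest array of all 20 and the lowest were both among these 5, and their ratio was 1.36. Cav1 on 3 mg/kg/day read 70822, 71985 and 73712 after 2 days, all above the controls, as 5.09% of genes did, and 68092, 68310 and 64093 after 14 days. Limma called no difference: the log2 values were 0.10 (95% interval -0.10 to 0.30) and -0.09 (interval -0.31 to 0.14) at the higher dose after 2 and 14 days, and 0.18 (interval -0.02 to 0.39) and 0.07 (interval -0.13 to 0.27) at the lower dose, with adjusted p values between 0.585 and 0.878. The intervals leave room for a difference of up to 1.31-fold, the upper bound for 3 mg/kg/day at 2 days.

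Cav2, which forms complexes with caveolin-1 and is lost from the membrane without it, read 26113, 27355 and 26476 at 10 mg/kg/day for 2 days, against 23058, 24820 and 25416 in chow controls. The treated arrays lay just above the controls, as they did for 10.2% of genes, with a log2 difference of 0.13 (SE 0.12, adjusted p = 0.642). After 14 days at that dose the signals were 22789 and 22500, just below the controls, as for 20.3% of genes, with a log2 difference of -0.11 (SE 0.13, adjusted p = 0.795). The interaction of dose and time for Cav2 was -0.40 (SE 0.17, unadjusted p = 0.0312, adjusted p = 0.964), and it was -0.24 without replicate A of the 2-day group at 3 mg/kg/day. Cav2 on 3 mg/kg/day was at -0.05 (SE 0.12) after 2 days and 0.12 (SE 0.12) after 14 days. The second probe set, 1425955_at, was dim, with signals of 244.3 to 645.8, and had log2 differences of -0.11 (SE 0.28) and 0.40 (SE 0.31) at 10 mg/kg/day after 2 and 14 days.

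Cav3, the muscle caveolin of striated and some smooth muscle, had the widest relative spread of the caveolins. It read 2052, 918 and 1561 at 10 mg/kg/day for 2 days and 1109 and 1776 at 14 days, against 1392, 1969 and 1549 in chow controls. Treated arrays lay on both sides of the controls. The log2 difference was -0.17 (SE 0.22, 95% interval -0.63 to 0.30) at 2 days and -0.20 (SE 0.25, interval -0.72 to 0.33) at 14 days, with adjusted p values of 0.775 and 0.809. The sign of both turned with 1 array: the value was 0.14 at 2 days without replicate B of that group and 0.13 at 14 days without replicate A of that group. At 3 mg/kg/day it was 0.14 (SE 0.22) and 0.10 (SE 0.22) after 2 and 14 days.

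**Figure D3:**
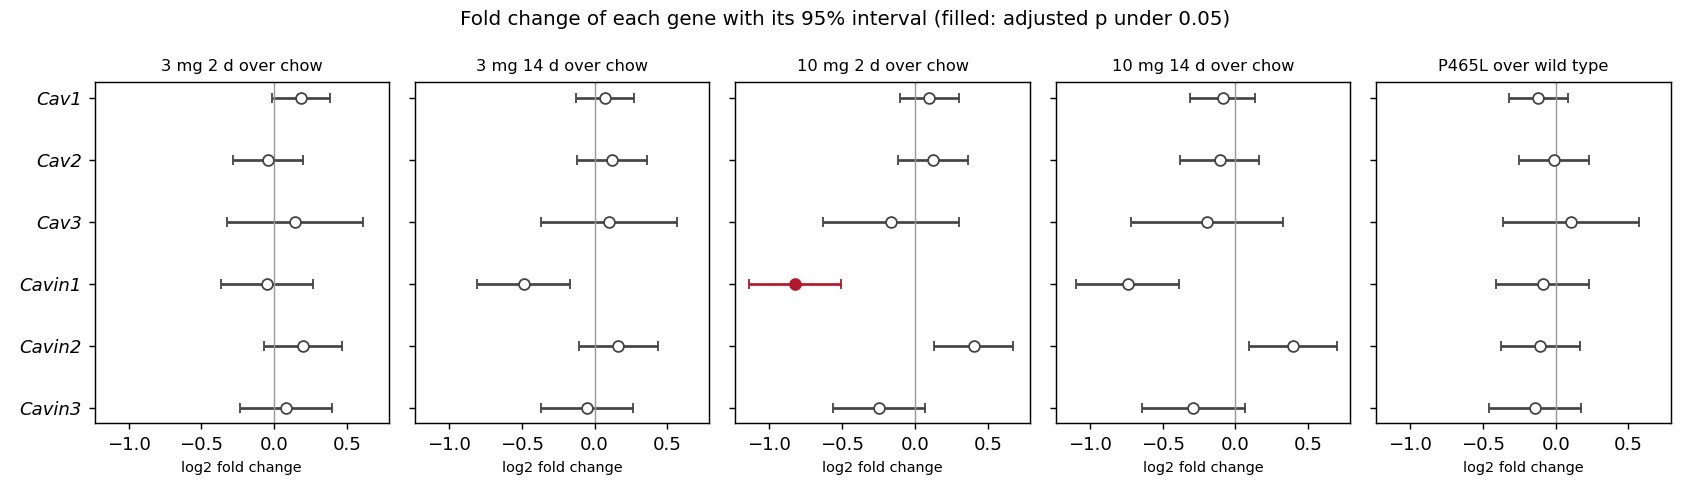
Log2 fold change (horizontal axes) of the 6 genes (vertical axis) in 5 comparisons, each as the point estimate with its 95% interval, and filled where the adjusted p over 11081 genes is under 0.05. Cavin1 at 10 mg/kg/day for 2 days is the only filled point, at -0.82.

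Across the family, the counts in the 4 rosiglitazone comparisons were 1 of 6 called at 10 mg/kg/day for 2 days and 0 of 6 in each of the other 3. The median log2 difference of the 6 genes was -0.03 at 10 mg/kg/day for 2 days, beside -0.01 over all 11081 genes, and -0.15 at 10 mg/kg/day for 14 days, beside -0.02. At 3 mg/kg/day it was 0.11 after 2 days and 0.09 after 14 days, beside -0.02 and -0.01 over all genes. Within an array, the log2 level of Cavin1 minus that of another member was lower over the 5 arrays at 10 mg/kg/day than over the 3 chow controls by 0.82 for Cav1, 0.82 for Cav2, 1.19 for Cavin2, 0.53 for Cavin3 and 0.61 for Cav3. The 5 arrays lay wholly below the 3 controls in these differences for every member but Cav3. All of these differences contain the same Cavin1 values, which themselves lay below every control in the 5 arrays. How many of all genes would separate from Cavin1 in this way was not counted. Cavin1 was singled out after its values were seen, so these differences are a description and carry no test.

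The order of the groups for Cavin1 was wild-type littermates (18000 ± 2084), chow (17081 ± 173), P465L (16831 ± 327), 3 mg/kg/day for 2 days (16567 ± 1787), 3 mg/kg/day for 14 days (12307 ± 2404), 10 mg/kg/day for 14 days (10491 ± 3464, n = 2) and 10 mg/kg/day for 2 days (9673 ± 1330), as mean signals ± SD. Neighbours in that order overlapped, except that the arrays at 3 mg/kg/day for 14 days lay below those at 3 mg/kg/day for 2 days. For Cavin2, by its brightest probe set only, the order began with both groups at 10 mg/kg/day (17223 ± 1299 after 2 days and 17141 ± 1578 after 14 days) and ended with chow (13036 ± 1463), and all neighbours overlapped. For Cavin3 it ended with the same pair (11988 ± 1300 after 2 days and 11679 ± 1610 after 14 days). For Cav1 the group means ran between 72173 ± 1454 at 3 mg/kg/day for 2 days and 59773 ± 1880 at 10 mg/kg/day for 14 days. For Cav2 they ran between 29145 ± 2506 in wild-type littermates and 22644 ± 204 at 10 mg/kg/day for 14 days. For Cav3 they ran between 1822 ± 373 at 3 mg/kg/day for 2 days and 1442 ± 472 at 10 mg/kg/day for 14 days, with every neighbouring pair overlapping.

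Cell type markers and the array medians are set here beside the Cavin1 result. The summed signals and mean levels of markers, here and below, took in every listed marker found on the array. Some of these lay below the filter on low levels and were not tested. They were Lep of adipocytes, Nppa and Tnni3 of cardiac muscle, and Myh2 and Myh4 of skeletal muscle. At 10 mg/kg/day for 2 days the median signal of an array was 362.2 to 429.2, against 347.9 to 374.5 in chow controls, and with that median as a covariate, an alternative added after the data were seen, Cavin1 was at -0.75 with an adjusted p of 0.122. With this covariate 0 of 11081 genes were called in this comparison. Of 10 endothelial markers 3 were higher and 7 lower, and 1 was called. This was Pecam1, which joins endothelial cells at their contacts, at -0.67 (SE 0.13, adjusted p = 0.0326), and it was called in 25 of 34 alternatives. Many of these could change its error or the adjustment but not its fold change. Over the average of the rosiglitazone groups Pecam1 was at -0.57 (SE 0.11, adjusted p = 0.0209). The summed endothelial signal was 30989 to 39967 in these treated aortas and 40635 to 49392 in chow controls. The mean log2 level of these markers, each centred on its own mean and weighted equally, overlapped. It was -0.33 to -0.01 in treated aortas and -0.14 to 0.08 in chow controls. Of 6 macrophage markers 0 were higher and none was called, with summed signals of 37786 to 42150 in treated aortas and 42126 to 51834 in chow controls. Of 7 adipocyte markers tested 5 were higher and none was called. The summed signals of all 8 adipocyte markers on the array were 148860 to 153460 in treated aortas and 94568 to 132150 in chow controls. Their equally weighted means overlapped, at -0.26 to 0.02 in treated aortas and -0.63 to -0.09 in chow controls. With the adipocyte markers' mean as a covariate Cavin1 was at -0.83 (SE 0.15, adjusted p = 0.00780), beside -0.82 (SE 0.15) as reported. That setting called 210 of 11081 genes in this comparison, beside 56 as reported. Of 8 smooth muscle markers 3 were higher and none was called, and the summed signals overlapped, at 402030 to 495480 in treated aortas and 400160 to 452580 in chow controls. Of 4 cardiac muscle markers tested 0 were higher and none was called. The summed signals of all 6 on the array were 3129 to 3661 in treated aortas and 4250 to 6319 in chow controls. Skeletal muscle markers were higher for 8 of 9 tested and fibroblast markers for 5 of 7, none called. The summed signals, over 11 skeletal muscle and 7 fibroblast markers, overlapped the controls. The equally weighted means of the macrophage and of the cardiac markers did not overlap the controls. The part of the endothelial, macrophage and cardiac markers in the Cavin1 result was not tested.

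The P465L comparison asked whether an aorta with dominant-negative PPARγ differed in the same genes. None of the 6 members was called, where limma called 2 of 11081 genes (0.018%) and 823 genes (7.43%) had an unadjusted p under 0.05. Cavin1 read 16972, 16458 and 17063 in P465L aortas, against 20147, 15986 and 17867 in wild-type littermates, with overlapping arrays and a log2 difference of -0.09 (SE 0.15, 95% interval -0.41 to 0.23, adjusted p = 0.903). Cavin2 read 15790, 14287 and 15030 in P465L aortas, against 14765, 18160 and 15755 in wild-type littermates, a log2 difference of -0.11 (SE 0.13, adjusted p = 0.858). Cavin3 was at -0.14 (SE 0.15), Cav1 at -0.12 (SE 0.10), Cav2 at -0.01 (SE 0.12) and Cav3 at 0.10 (SE 0.22), with adjusted p values between 0.774 and 0.991. The family median was -0.10, beside 0.01 over all genes.

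The Cavin1 probe set 1421431_at departed from the brightest one in P465L aortas. It read 682.8, 717.4 and 657.2 in P465L aortas, against 1686, 1726 and 1034 in wild-type littermates. The P465L arrays lay wholly below the wild-type ones, as they did for 6.76% of probe sets. They were also the lowest of all 20 arrays, which include the separate rosiglitazone experiment, and how many probe sets show this was not counted. The log2 difference was -1.003 (SE 0.25, unadjusted p = 0.000592), and over the 19389 probe sets its adjusted p was 0.425, so it was not called. In that fit limma called 0.00516% of probe sets, and 7.13% had an unadjusted p under 0.05. The annotation used here does not say which part of the Cavin1 transcript each probe set reads. The third Cavin1 probe set was at -0.14 (SE 0.36) in this comparison. In wild-type littermates 1421431_at was itself at -0.55 against chow controls (SE 0.25, unadjusted p = 0.0365, adjusted p = 0.199). No cell type marker was called with P465L, and 5 of the 7 marker lists had more members lower than higher. Skeletal muscle markers were lower for 9 of 9 tested. The summed signals of all 11 on the array overlapped, at 4864 to 56741 in P465L aortas and 16680 to 91575 in wild-type littermates. Endothelial markers were lower for 9 of 10 (summed signals of 37476 to 39457 in P465L aortas and 38999 to 46473 in wild-type littermates). Their equally weighted means did not overlap, at -0.26 to -0.05 in P465L aortas and -0.004 to 0.09 in wild-type littermates. Adipocyte markers were lower for 6 of 7 tested. The summed signals of all 8 on the array were 114930 to 188060 in P465L aortas and 149110 to 210730 in wild-type littermates. Smooth muscle markers were lower for 6 of 8, and their summed signals did not overlap, at 409160 to 447850 in P465L aortas and 490410 to 500500 in wild-type littermates. The part of these markers in the Cavin1 reading was not tested.

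The untreated groups of both experiments, wild-type littermates and chow controls, differed in 6.49% of genes (719 of 11081) at an adjusted p under 0.05, and 0 of 6 members were among them. The mouse line, the diet and the experiment cannot be told apart in this contrast. Cavin2 read 14765, 18160 and 15755 in wild-type littermates, against 12341, 14718 and 12051 in chow controls, a log2 difference of 0.31 (SE 0.13, adjusted p = 0.147). Its probe set 1443832_s_at read 6750, 8849 and 8113 in wild-type littermates, against 4145, 5613 and 3940 in chow controls. That difference of 0.79 (SE 0.18) was called, with an adjusted p of 0.0153 in the fit of probe sets, where 5.65% were called. Cav2 read 27052, 28460 and 31922 in wild-type littermates, against 23058, 24820 and 25416 in chow controls, all above, as for 11.8% of genes, with a log2 difference of 0.25 (SE 0.12, adjusted p = 0.198). Cav1 was at 0.14 (SE 0.10), Cavin1 at 0.07 (SE 0.15), Cavin3 at 0.06 (SE 0.15) and Cav3 at -0.04 (SE 0.22). The dimmer Cavin1 probe set 1421431_at went the other way, at -0.55 (SE 0.25, adjusted p = 0.199), and was not called. Skeletal muscle markers were higher in wild-type littermates for 9 of 9 genes, with a median log2 difference of 2.42 and none called. Among the other markers, Car3 of adipocytes (0.66, SE 0.17, adjusted p = 0.0224) and Dcn of fibroblasts (0.33, SE 0.10, adjusted p = 0.0437) were called higher, and Tnnt2 of cardiac muscle (-0.84, SE 0.25, adjusted p = 0.0461) was called lower.

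The members did not vary as a block over the 20 arrays. Cavin1 and Cavin3 varied together (Pearson's r = 0.71, permutation p = 0.00039, Spearman's rho = 0.73, permutation p = 0.00043), with adjusted p values of 0.00375 and 0.00645 over the 15 pairs of members. Cavin2 ran opposite to Cavin3 (r = -0.71, permutation p = 0.0005, rho = -0.71, permutation p = 0.00089), with adjusted p values of 0.00375 and 0.00667. Without the 2 arrays farthest from the median of the gene named first, r was 0.71 for Cavin1 with Cavin3 and -0.79 for Cavin2 with Cavin3. On deviations from the group means, which take out the differences between groups, r was 0.66 and -0.80. Cavin1 also ran opposite to Cavin2 (r = -0.56, permutation p = 0.0110, adjusted p = 0.0411), with rho at -0.57 (permutation p = 0.0102, adjusted p = 0.0509), r at -0.44 without the 2 farthest arrays and r at -0.59 on deviations from the group means. Cav3 and Cavin3 had r = 0.65 (permutation p = 0.00213, adjusted p = 0.0107) but rho = 0.47 (permutation p = 0.0397, adjusted p = 0.149) and r = 0.41 without the 2 farthest arrays. The remaining 11 pairs had adjusted p values of 0.149 or more for r. Cav1 and its neighbour and partner Cav2 had r = 0.19 (permutation p = 0.415, rho = 0.24, permutation p = 0.305), and Cav1 and Cavin1 had r = 0.04 (permutation p = 0.860, rho = 0.02, permutation p = 0.932).

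**Figure D4:**
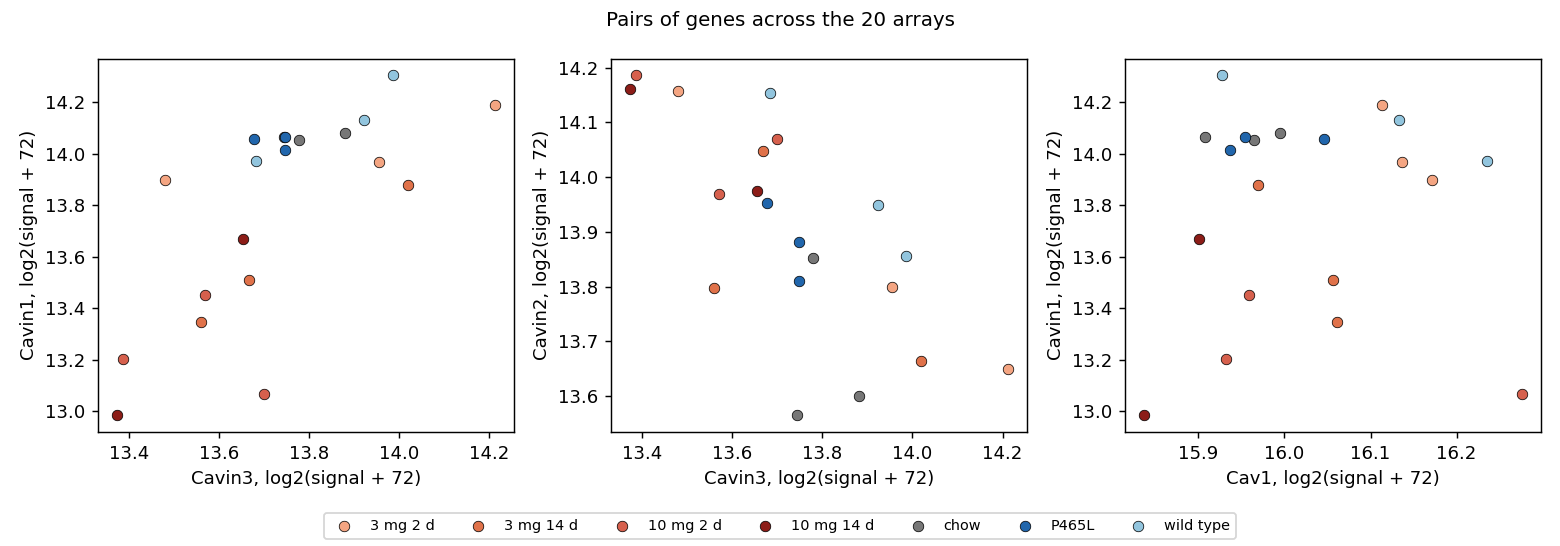
Log2(signal + 72) of Cavin1 against Cavin3, Cavin2 against Cavin3, and Cavin1 against Cav1 (vertical against horizontal axes), with 1 point for each of the 20 arrays coloured by group. Cavin1 rises with Cavin3 (r = 0.71), Cavin2 runs opposite to Cavin3 (r = -0.71), and Cavin1 shows little relation to Cav1 (r = 0.04).

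Properties of the arrays moved with the same genes. Cavin3 had r = -0.75 with the median signal of the array and 0.82 with the mean of the 8 smooth muscle markers, and on deviations from the group means these were -0.79 and 0.80. Cav3 had r = 0.70 with the smooth muscle markers. Cavin2 had r = -0.50 with them, and -0.63 on deviations. Cavin1 had r = -0.62 with the array median but -0.27 on deviations. With measures of RNA integrity, the ratios of 3′ to 5′ signal of 2 control genes, Cavin1 had r = -0.51 for Gapdh (0.24 on deviations) and -0.55 for Actb (-0.46 on deviations). With cell type markers it had r = 0.60 for fibroblasts (0.35 on deviations), 0.50 for macrophages (-0.25) and 0.42 for smooth muscle (0.28). For the other lists r was 0.26 for skeletal muscle (0.03), 0.04 for endothelium (-0.24), 0.01 for adipocytes (0.03) and -0.01 for cardiac muscle (-0.34). Cav2 had r = -0.66 with the Gapdh ratio, which ran between 0.795 and 0.975 over the arrays, and -0.72 on deviations with the adipocyte markers. These values are descriptions over the 20 arrays, and their part in the relations between members was not tested.

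The genes most alike to each member over the 20 arrays, by Pearson's r of the log2 level among all tested genes outside the family, were different for each. Cav1 was most like Fhl1 (r = 0.84), a muscle protein with LIM domains, the surface protein Tm4sf1 (r = 0.79) and Emcn (r = 0.76), an endothelial sialoprotein. Cav2 was most like Zfp760 (r = 0.91), Pds5b (r = 0.88), a cohesin regulator, and Rb1cc1 (r = 0.87), an autophagy scaffold. Cav3 was most like the phosphate transporter Slc20a2 (r = 0.82), the tetraspanin Cd9 (r = 0.82) and the Integrator subunit Ints5 (r = 0.82). Cavin1 was most like the coatomer subunit Copg1 (r = 0.85), Nrde2 (r = 0.85) and the nucleotide receptor P2ry6 (r = 0.85), and on deviations from the group means these were 0.70, 0.57 and 0.45. Cavin2 was most like the Integrator subunit Ints8 (r = 0.79), Rsbn1 (r = 0.78) and the chaperonin-like Mkks (r = 0.77). Cavin3 was most like the tetraspanin Cd81 (r = 0.90), the secreted guidance protein Slit3 (r = 0.89) and Zbtb22 (r = 0.89).

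Other genes of the caveola and of neighbouring membrane systems were mostly without a call. Of 7 caveola accessory genes tested, which encode proteins of the caveolar neck, coat and scission such as the EHD ATPases, none was called in any rosiglitazone comparison or with P465L. Ehd2, which encircles the caveolar neck, was at -0.21 (SE 0.12, adjusted p = 0.392) at 10 mg/kg/day for 2 days and -0.40 (SE 0.13, adjusted p = 0.212) at 14 days. The list's median at 10 mg/kg/day for 2 days was -0.15, with Ehd3 highest at 0.20 and Ehd4 lowest at -0.22. With P465L Ehd4 was highest at 0.27 and Flna lowest at -0.22. Ehd4 was called higher in wild-type littermates than in chow controls (0.48, SE 0.13, adjusted p = 0.0279), where 6.49% of genes were called. Cavin4, the muscle cavin, lay below the filter on low levels together with Pacsin1, and Pacsin2 was not analysed here.

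The raft scaffold genes, flotillins, erlins and stomatin, gave 0 of 5 called with rosiglitazone or P465L. Flot1, a scaffold of flat membrane rafts, was lowest at 10 mg/kg/day for 2 days, at -0.43 (SE 0.13, adjusted p = 0.134), and Erlin1 highest at 0.09. Of 17 genes for signalling and transport proteins found in caveolae, 0 were called with rosiglitazone or P465L. Cd36, a fatty acid transporter whose gene is a known PPARγ target, was highest at 1.02 (SE 0.32, adjusted p = 0.142) at 10 mg/kg/day for 2 days and 1.07 (SE 0.26, adjusted p = 0.0728) over the average of the rosiglitazone groups, and at -0.70 (SE 0.32, adjusted p = 0.661) was lowest with P465L. Nos3, the endothelial nitric oxide synthase that caveolin-1 binds and inhibits, was at -0.29 (SE 0.14, adjusted p = 0.324) at 10 mg/kg/day for 2 days and -0.47 (SE 0.14, adjusted p = 0.494) with P465L. In wild-type littermates against chow controls, where 6.49% of genes were called, Cd36 was called higher (1.47, SE 0.32, adjusted p = 0.00916) and the potassium channel gene Kcnma1 lower (-0.59, SE 0.15, adjusted p = 0.0246).

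Among 8 clathrin coat genes, of the other main coated route into the cell, 1 was called with rosiglitazone. Over all genes 0.271% were called at 10 mg/kg/day for 14 days and 0.433% for the average of the rosiglitazone groups. Ap2m1, the cargo-binding subunit of the AP2 adaptor, fell by 0.82 (SE 0.17, adjusted p = 0.0451) at 10 mg/kg/day for 14 days and by 0.55 (SE 0.12, adjusted p = 0.0491) over the average of the rosiglitazone groups, and was at -0.66 (SE 0.15, adjusted p = 0.0545) at 10 mg/kg/day for 2 days. Under 34 alternatives its value kept the same sign, at -0.91 to -0.68 at 10 mg/kg/day for 14 days and -0.64 to -0.42 for the average, but it was called in 14 and 13 of them. Some of these, such as leaving out an array of a group not compared, could not move the value. Without chow replicate A Ap2m1 was at -0.73 (adjusted p = 0.197) and -0.46 (adjusted p = 0.284). At 10 mg/kg/day for 14 days 8 of 8 clathrin coat genes were lower, with a median of -0.15 beside -0.02 over all genes, of which 46.0% were higher. With P465L 2 of 8 were higher and 6 lower, none called. Ap2a1, another AP2 subunit, was called lower in wild-type littermates than in chow controls (-0.80, adjusted p = 0.00135), where 6.49% of genes were called.

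**Figure D5:**
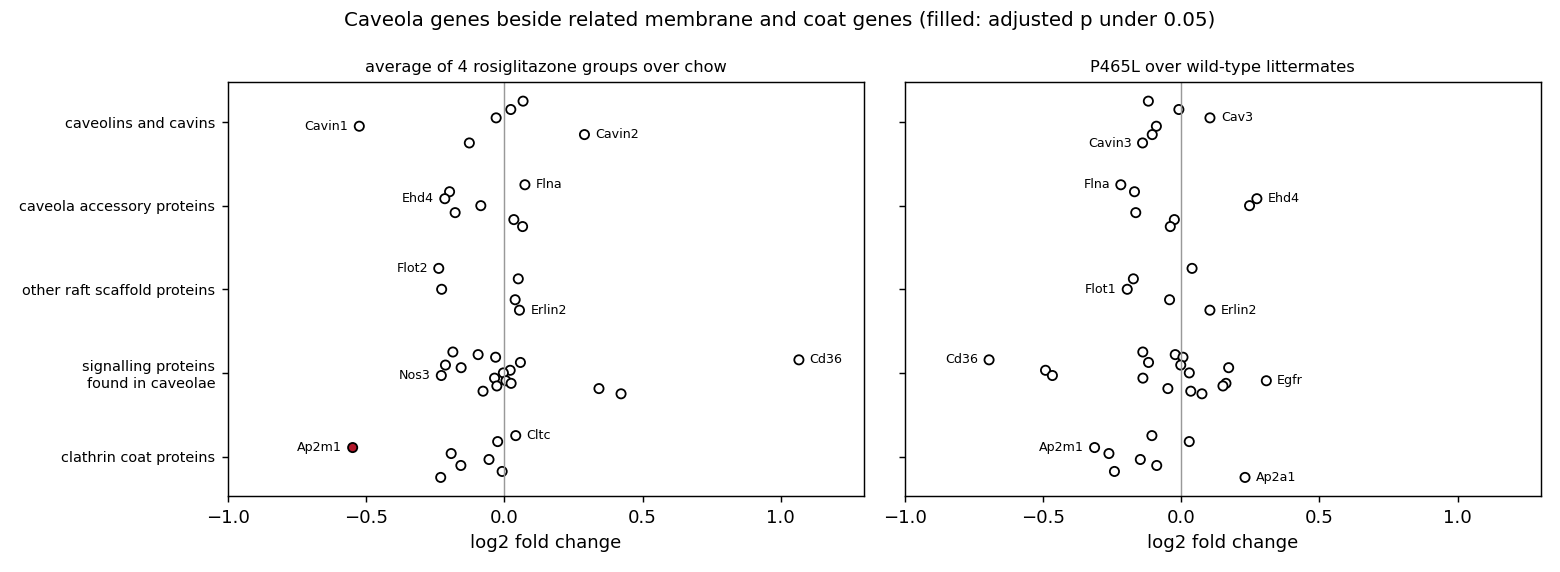
Log2 fold change (horizontal axes) of the caveolin and cavin genes and of the genes of 4 related lists (vertical axis), for the average of the rosiglitazone groups over chow and for P465L over wild-type littermates, with filled points for an adjusted p under 0.05. Ap2m1, at -0.55 in the rosiglitazone panel, is the only filled point, and Cavin1 lies beside it at -0.53.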

How the data were processed

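RNA of 20 pools of mouse aorta was hybridized to Affymetrix GeneChip arrays of the mouse genome. The deposited intensity values are linear signals per probe set, made by the authors with MAS5, per the submitters' processing notes. No version, detection call or filter was found in the labels. On every array the 2% trimmed mean was 1500. Of 45101 probe sets, 64 were controls, 34945 had 1 gene symbol, 932 several and 9160 none, by the platform annotation. Symbols were checked through the Entrez ID for 34741 probe sets, and 0 changed. Before log2 was taken, 72 (the 20th percentile of all signals) was added, so that fold changes of dim probe sets are understated.

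Each gene took its brightest probe set. Genes were tested where its mean reached the 50th percentile of all probe sets, which left 11081 of 18193 genes. All 20 arrays entered 1 linear model of group means in limma 3.58.1 in R 4.3.3, with 13 residual and 7.34 prior degrees of freedom and a variance trend. Tests were two-sided, Benjamini-Hochberg adjustment ran over all genes within each comparison, and calls needed an adjusted p under 0.05. The limma p-values measure spread between pools. The permutation p-values of the correlations shuffled all 20 arrays across groups, so they also take in differences between groups and between the experiments. Probe sets were fitted apart in the same way. Correlations used 100000 permutations. The fit was tested on simulated data. The tables used scipy 1.17.1, pandas 2.3.3 and numpy 2.4.6 under Python 3.11.15, and matplotlib 3.10.9 drew the plots. Promoter sequences and positions are from RefSeq on GRCm38.p6, and 5 of the 6 members had a promoter entry.

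The named genes were all members with every probe set, the 3 genes most alike to each member, and, from the lists, every called gene and the highest and lowest of a list where a member result stands beside it. Ehd2, and Nos3 with P465L, fall outside that rule and were named after their values were seen. The lists were caveola accessory, raft scaffold, caveolar signalling and clathrin coat genes, and markers of adipocytes, smooth muscle, endothelium, fibroblasts, skeletal muscle, cardiac muscle and macrophages. Fibroblast and cardiac muscle markers had 0 calls with rosiglitazone or P465L. The members and the lists were chosen with earlier results of these data known. Alternatives were other offsets, filters, scalings, variance models, array weights, a mean over probe sets, covariates, the array letter as a block, and leaving out each array.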

Additional observations from a re-analysis of the deposited data

How the results depend on the processing

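The call of Cavin1 at 10 mg/kg/day for 2 days, 1 of 6 members, became 0 of 6 with the mean of a gene's probe sets (Cavin1 at -0.67), with only the arrays of the rosiglitazone experiment (adjusted p = 0.0598), without the variance trend (adjusted p = 0.0545) and with the array median as a covariate, added after the data were seen (-0.75). Over all genes these settings called, in that order, 27 of 9992, then 14, 13 and 0 of 11081, beside 56 as reported. The loss of calls was therefore not particular to Cavin1. Leaving out single arrays gave 0 to 1 members called in this comparison, 0 to 1 at 10 mg/kg/day for 14 days and 0 to 1 for the average of the rosiglitazone groups. Quantile normalization gave 1 in place of 0 at 10 mg/kg/day for 14 days (Cavin1, adjusted p = 0.0465) and for the average (adjusted p = 0.0399), and array weights did the same (adjusted p = 0.0164 and 0.0242). For the average, quantile normalization called 55 of 11084 genes and array weights called 260 of 11081, beside 48 as reported. Counts of all genes under these settings at 10 mg/kg/day for 14 days are not given here. With the adipocyte markers as a covariate 1 member in place of 0 was called in wild-type littermates against chow, Cav2 at 0.38 (adjusted p = 0.0302). The count of all genes called in that setting is not given here. The cause of these changes was not tested. Scaling arrays to a common median moved the median of all genes by -0.14 at 10 mg/kg/day for 2 days, -0.13 at 3 mg/kg/day for 14 days and 0.16 for the interaction of dose and time, and Cavin1 was then at -0.96 at 10 mg/kg/day for 2 days. The array letters did not pair the samples, with a median r of 0.025 over 57 pairs (-0.301 to 0.358). With the letter as a replicate block Cavin1 was at -0.82 (adjusted p = 0.0271) at 10 mg/kg/day for 2 days, and the count of members called stayed at 1 there and at 0 in the other 9 comparisons. The number of all genes called at 10 mg/kg/day for 2 days, 56 as reported, ranged over the alternatives between 0 (array median as a covariate, or without replicate B of that group) and 612 (array weights). Cavin1 kept a negative value at 10 mg/kg/day, at both times, for the average and for dose under all 34 alternatives. Many of these, such as another level filter or leaving out an array of a group not compared, could not move the estimate. They are therefore not 34 separate checks of its sign.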
